A study of Mus musculus with 6 samples.

Results

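The RNA levels of 10 genes of the Hippo pathway were compared in E14 mouse embryonic stem cells that had received an shRNA directed at Ncoa3, which encodes a nuclear receptor coactivator, or a scrambled shRNA. The genes are the TEAD transcription factors Tead1, Tead2 and Tead4, the coactivators Yap1 and Wwtr1 (the gene of TAZ), the kinase Lats2, and the target genes Ccn1, Ccn2, Amotl2 and Ankrd1. They were chosen by gene symbol, which took in all 21 array probes that the platform annotation gives to these 10 genes, out of 45281 probes on the array. The choice was made with the difference between the groups in view. The differences between the groups are therefore given for these genes as a description and not as a test.

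The study compared 3 cultures transfected with an Ncoa3 shRNA with 3 cultures transfected with a scrambled shRNA, both taken on day 4. All 6 were grown without feeder cells on gelatin in medium with serum and LIF, and the labels call the 3 samples of a group biological replicates. Total RNA of each sample was hybridised to 1 Illumina bead array. Plasmid was delivered with the lipid reagent Lipofectamine, and the labels name no selection of cells that took it up.

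The Hippo pathway is a kinase cascade that reads cell contact, shape and tension. The kinases Stk3 and Stk4 activate Lats1 and Lats2, which phosphorylate YAP and TAZ and keep them out of the nucleus. When they are not phosphorylated, YAP and TAZ enter the nucleus and bind TEAD factors, which carry them to target genes such as Ccn1, Ccn2, Amotl2 and Ankrd1. In the mouse blastocyst, Tead4 and Yap1 are known for turning on Cdx2 in the trophectoderm, the outer layer. The arrays measured RNA only, and neither the phosphorylation nor the location of a protein.

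Ccn1, Ccn2 and Amotl2 were higher in Ncoa3 shRNA cells than in scrambled shRNA cells, Ccn2 by 4.03-fold, and Tead1 was higher by 2.02-fold. Tead2 and Tead4 were lower by less, at log2 changes of -0.52 and -0.39. Yap1 was higher by 0.48 on the log2 scale, whereas Wwtr1 had a change of -0.31 and Ankrd1 of 0.01. Lats2 was at background on all 6 arrays. A log2 change is always Ncoa3 shRNA minus scrambled shRNA, from a limma fit over all features, with its standard error (SE).

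Of the 21 probes, 17 were kept for the fit, which needed a detection p-value below 0.01 on 3 or more of the 6 arrays. They cover 9 of the 10 genes, and the brightest kept probe stands for its gene. Of those 9 genes, 7 were past an adjusted p of 0.05, as were 46.9% of all 11782 features fitted. Of the 7, 5 passed it in the direction of higher expression in Ncoa3 shRNA cells, as did 22.5% of all features, and 2 in the lower direction, as did 24.3%. A change of at least 1.5-fold as well was shown by 4 genes (16.1% of all features), all 4 higher (9.31%) and 0 lower (6.82%). The median log2 change of the 9 genes was 0.48, against -0.03 over all features. In 8 of the 9 genes the 3 values of one group did not overlap the 3 values of the other, as in 57.8% of all features. Fitted probe by probe, 13 of the 17 kept probes were past the threshold (43.6% of all 16674 kept probes), 9 of them higher (20.9%) and 4 lower (22.7%), and 14 had groups without overlap (55.2%). Ccn1 and its 3 probes, counted as higher, were kept only through the Ncoa3 shRNA arrays. Since this contrast was in view when the genes were chosen, nothing is read from these counts.

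**Figure D1:**
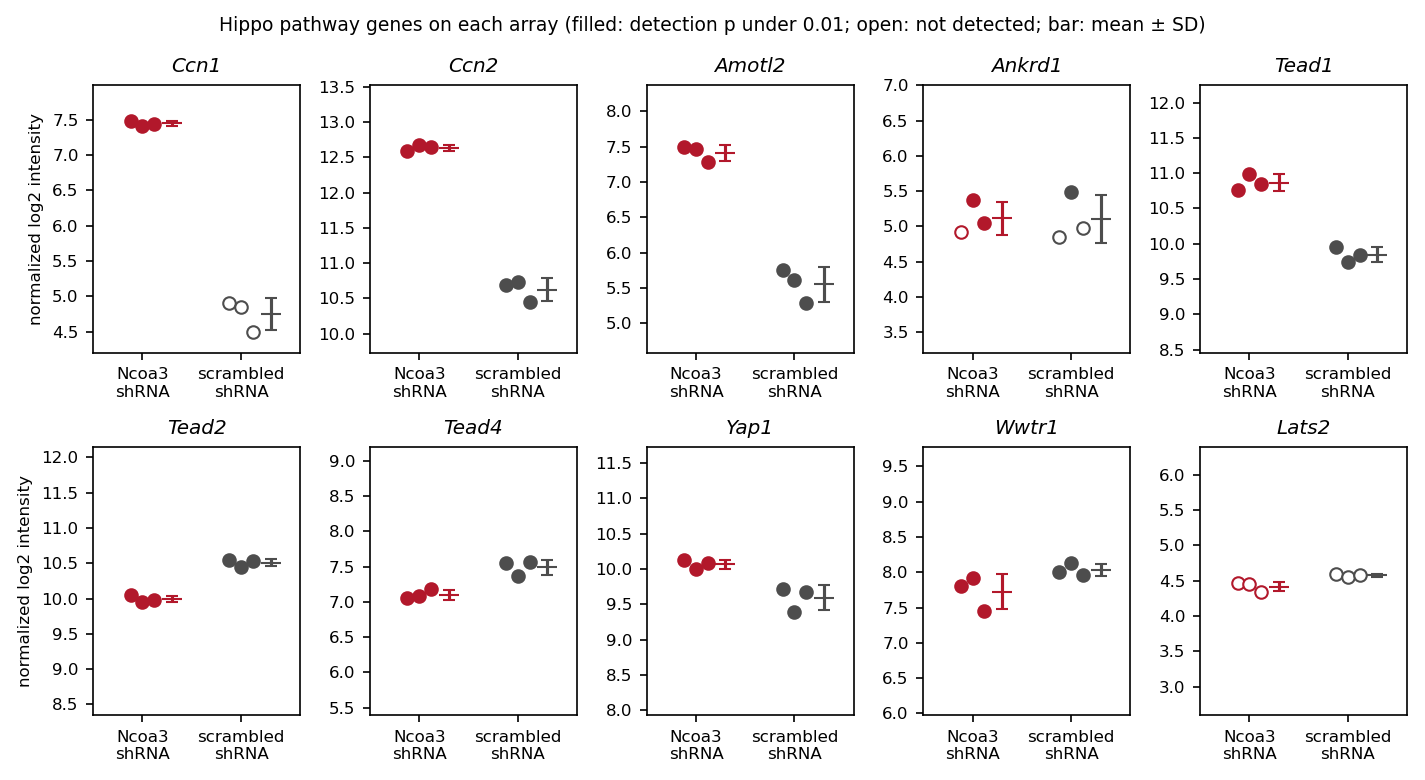
Normalized log2 intensity of each gene on the 3 Ncoa3 shRNA arrays (red, left) and the 3 scrambled shRNA arrays (grey, right), each panel spanning the same number of log2 units. Filled points were detected at p under 0.01 and open points were not, and bars give the mean ± SD (n = 3). Ccn1, Ccn2, Amotl2 and Tead1 lie apart on their y axes, while the Ankrd1 groups overlap.

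The number of probes detected ran from 16262 to 17105 on Ncoa3 shRNA arrays and from 15720 to 16311 on scrambled shRNA arrays. Arrays of the same group had Pearson correlations of 0.995 to 0.997 across features, and arrays of different groups of 0.970 to 0.973. The only Ncoa3 probe was at background on all 6 arrays, with a raw signal of 89.8 ± 1.92 in Ncoa3 shRNA cells and 93.0 ± 6.90 in scrambled shRNA cells (SD, n = 3 each), so the knockdown could not be checked. For all 6 samples the treatment protocol names an Esrrb shRNA plasmid where the titles name an Ncoa3 or a scrambled shRNA. Esrrb, a transcription factor of naive pluripotency, averaged 13.41 ± 0.09 in Ncoa3 shRNA cells and 14.03 ± 0.03 in scrambled shRNA cells (log2 intensity, SD, n = 3 each; limma adjusted p = 2.55e-04).

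Tead1 is one of the DNA-binding TEAD factors. Its brightest probe had log2 intensities of 10.76, 10.99 and 10.84 on Ncoa3 shRNA arrays 1 to 3, against 9.96, 9.75 and 9.84 on scrambled shRNA arrays 1 to 3. The lowest Ncoa3 shRNA value lay above the highest scrambled shRNA value. The log2 change was 1.02 ± 0.09 (SE). A second kept probe gave a change of 1.14 ± 0.13 (SE), from 8.41, 8.85 and 8.52 on Ncoa3 shRNA arrays against 7.41, 7.33 and 7.63 on scrambled shRNA arrays. Both probes thus had every Ncoa3 shRNA value above every scrambled shRNA value. One more Tead1 probe was at background on all 6 arrays, with a difference of -0.03. The Tead1 signal therefore comes from 2 of the 3 probes that carry its name. Of the 3, only the probe at background is annotated to a RefSeq transcript.

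Tead2 is the TEAD factor most associated with early embryonic cells. It had log2 intensities of 10.04, 9.96 and 9.98 on Ncoa3 shRNA arrays, against 10.54, 10.45 and 10.53 on scrambled shRNA arrays. The groups did not overlap, and the values within each lay close together. The log2 change was -0.52 ± 0.06 (SE), or 1.43-fold lower in Ncoa3 shRNA cells. Tead2 has 1 probe on the array.

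Tead4 is the TEAD factor that acts upstream of Cdx2 in trophectoderm. Its brightest probe had log2 intensities of 7.05, 7.08 and 7.18 on Ncoa3 shRNA arrays, against 7.55, 7.37 and 7.56 on scrambled shRNA arrays. The groups did not overlap and the log2 change was -0.39 ± 0.08 (SE). The next brightest probe had a change of -0.24 ± 0.06 (SE) without overlap. The dimmest kept probe had a change of -0.12 ± 0.08 (SE), with groups that overlapped, and one further probe was at background on all 6 arrays. The size of the Tead4 difference thus depended on the probe, and after median scaling over all probes the brightest probe had a change of -0.22 and was no longer past the threshold. Tead3, the remaining TEAD factor, was at background on all 6 arrays and was not measured.

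Yap1 encodes the coactivator that TEAD factors bind. Its probe had log2 intensities of 10.12, 9.998 and 10.08 on Ncoa3 shRNA arrays, against 9.72, 9.39 and 9.68 on scrambled shRNA arrays. The groups did not overlap, and scrambled replicate 2 was the lowest value. The log2 change was 0.48 ± 0.10 (SE), and 0.37 when scrambled replicate 2 was left out.

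Wwtr1 encodes TAZ, the relative of YAP. Its brightest probe had log2 intensities of 7.80, 7.92 and 7.45 on Ncoa3 shRNA arrays, against 8.004, 8.13 and 7.96 on scrambled shRNA arrays. The groups lay next to each other without overlap, with Ncoa3 shRNA replicate 3 the lowest. The log2 change of -0.31 ± 0.12 (SE) was not past the threshold. The other kept probes had changes of -0.32 ± 0.14 and -0.51 ± 0.15 (SE), and the groups overlapped for the first of these and not for the other. All 3 probes were on the same side of 0. Whether Wwtr1 passed the threshold depended on the processing: it was past it without Ncoa3 shRNA replicate 2 (log2 change -0.41) and with the mean of its kept probes (-0.38).

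Lats2 encodes a kinase that phosphorylates YAP and TAZ, and is itself a target gene of YAP. Its raw signal was 84.3, 82.5 and 73.1 on Ncoa3 shRNA arrays, against 94.3, 86.1 and 87.0 on scrambled shRNA arrays, and none of these was above background. All 3 Ncoa3 shRNA signals lay below the 3 scrambled shRNA signals, within the range of the background. No fold is given for Lats2.

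**Figure D2:**
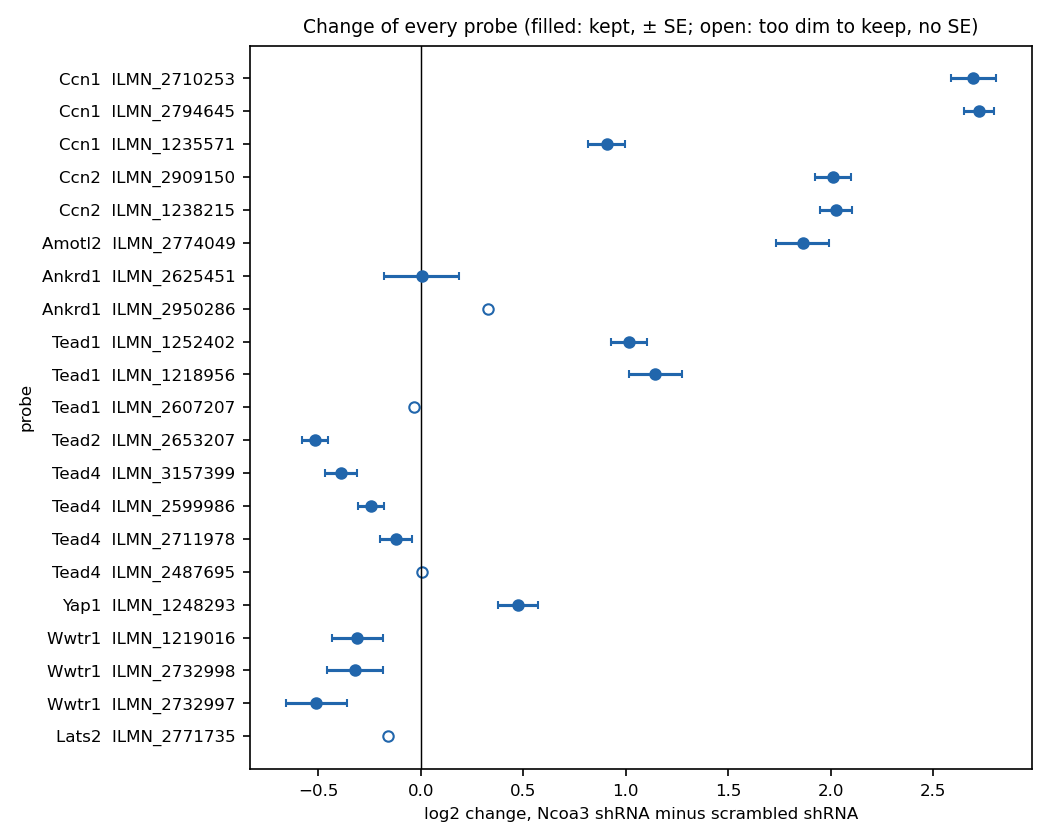
Log2 change (x axis, Ncoa3 shRNA minus scrambled shRNA) of each of the 21 probes (y axis). Filled points are kept probes with their standard error in the fit of all kept probes, and open points are probes too dim to be kept. Ccn2 probes lie together, Ccn1 probes run from 0.91 to 2.72, and all Wwtr1 probes and all kept Tead4 probes are below 0.

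Ccn2 is a secreted matrix-associated protein, also called CTGF, and among the best known YAP target genes. Its brightest probe had log2 intensities of 12.59, 12.67 and 12.64 on Ncoa3 shRNA arrays, against 10.69, 10.74 and 10.45 on scrambled shRNA arrays. The groups lay far apart relative to their spread. The log2 change was 2.01 ± 0.09 (SE). The second probe had 9.93, 10.18 and 10.11 on Ncoa3 shRNA arrays, against 8.02, 8.07 and 8.06 on scrambled shRNA arrays, a log2 change of 2.02 ± 0.08 (SE). The changes of both probes differed by less than their standard errors. Across the 19 alternatives the brightest probe had changes from 1.92 to 2.08.

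Ccn1 is the sister gene of Ccn2, also called CYR61. None of its 3 probes was above background on a scrambled shRNA array, and all 3 were above it on each Ncoa3 shRNA array. They were kept only because of the Ncoa3 shRNA arrays, so that a difference was built into their selection. The brightest probe had log2 intensities of 7.48, 7.42 and 7.44 on Ncoa3 shRNA arrays, against 4.91, 4.85 and 4.49 on scrambled shRNA arrays. The Ncoa3 shRNA values lay close together, and the scrambled shRNA values are of the background. In background-corrected values, Ccn1 was at least 4.86-fold higher in Ncoa3 shRNA cells by this probe, and at least 3.80-fold and at least 1.31-fold by the others. Such a bound sets the Ncoa3 shRNA mean against the lowest signal detected on each scrambled shRNA array, or the probe's own value where that was higher. In raw signal the brightest probe had 246.0, 263.6 and 244.6 on Ncoa3 shRNA arrays, against 102.8, 94.5 and 83.8 on scrambled shRNA arrays. Without subtraction of background the log2 change of this probe was 1.39, against 2.70 with it, and it was 1.38 in the authors' normalized values.

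Amotl2 encodes an angiomotin, a junction protein that binds YAP and is also a YAP target gene. It had log2 intensities of 7.49, 7.47 and 7.28 on Ncoa3 shRNA arrays, against 5.76, 5.61 and 5.28 on scrambled shRNA arrays. The groups did not overlap, and replicate 3 was the lowest of each. The log2 change was 1.86 ± 0.13 (SE), or 3.64-fold. Without subtraction of background it was 1.05, and in the authors' normalized values 1.07. The raw signals were 224.6 to 271.7 on Ncoa3 shRNA arrays and 104.8 to 125.6 on scrambled shRNA arrays.

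Ankrd1 encodes a nuclear ankyrin repeat protein known from heart muscle, and is widely used as a readout of YAP. Its brighter probe had log2 intensities of 4.92, 5.37 and 5.05 on Ncoa3 shRNA arrays, against 4.85, 5.49 and 4.98 on scrambled shRNA arrays. The groups overlapped, and the log2 change was 0.01 ± 0.18 (SE). The probe was above background on Ncoa3 shRNA arrays 2 and 3 and on scrambled shRNA array 2, just enough to be kept. The dimmer probe was above background on 1 array and was not kept. Its groups did not overlap, with a difference of 0.33 as processed here and between 0.09 and 0.34 under other background corrections and normalizations. The sign of the brighter probe's change turned with the processing.

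Promoter sequence was looked at for one short motif, because Ccn1 and Amotl2 were higher and the brighter Ankrd1 probe was not. All 3 are YAP and TEAD target genes. Both Ankrd1 probes were near background, and the dimmer one differed by 0.33 without overlap, so a change of Ankrd1 could have been missed. The motif is GGAATG, the core of the MCAT element that TEAD factors bind, searched on both strands. The windows come from RefSeq for assembly GRCm38.p6 and run from 250 bases before to 50 bases after the start site, and 7 of the 10 genes matched a window, with 9 windows in all. They are written 5′ to 3′ on the strand of the gene, with matches in capitals.
Ccn1, minus strand of chr3:145649936-145650235: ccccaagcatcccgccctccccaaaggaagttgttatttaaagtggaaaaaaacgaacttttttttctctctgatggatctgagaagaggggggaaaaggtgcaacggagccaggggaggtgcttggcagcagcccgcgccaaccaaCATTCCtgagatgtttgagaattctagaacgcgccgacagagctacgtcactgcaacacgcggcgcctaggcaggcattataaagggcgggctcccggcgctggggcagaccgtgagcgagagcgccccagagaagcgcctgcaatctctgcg
Amotl2, plus strand of chr9:102717554-102717853: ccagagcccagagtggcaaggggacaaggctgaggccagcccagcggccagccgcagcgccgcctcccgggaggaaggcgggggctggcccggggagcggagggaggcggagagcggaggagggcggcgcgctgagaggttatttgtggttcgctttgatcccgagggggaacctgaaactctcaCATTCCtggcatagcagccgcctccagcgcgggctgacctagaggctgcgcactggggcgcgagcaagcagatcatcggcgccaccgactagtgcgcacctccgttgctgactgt
Ankrd1, minus strand of chr19:36119795-36120094: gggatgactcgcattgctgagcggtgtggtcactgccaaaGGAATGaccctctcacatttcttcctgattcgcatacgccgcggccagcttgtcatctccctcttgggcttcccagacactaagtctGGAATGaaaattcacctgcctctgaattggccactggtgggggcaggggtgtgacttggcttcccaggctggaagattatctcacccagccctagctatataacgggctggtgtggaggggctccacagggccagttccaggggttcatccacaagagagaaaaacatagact
The windows of Ccn1 and Amotl2 each held 1 match on the other strand, written CATTCC, that began 103 and 65 bases before the start site. The window of Ankrd1 held 2 matches on its own strand, which began 210 and 123 bases before the start site. Among the other members, the windows of Yap1 and Wwtr1 held a match, the 2 overlapping Wwtr1 windows the same one. Of the 2 Lats2 windows, 1 held a match and the other held none. The Tead2 window held none. In all, 6 of 7 genes had a match, and 14.7% of all 32851 RefSeq windows of this length did. At least 2 matches, as in Ankrd1, were found in 1.36% of windows. The CArG box, the site of the factor SRF, was in none of the member windows searched and in 1.63% of all windows. Ccn2, Tead1 and Tead4 had no window and were not searched, nor was any sequence outside the windows. A match is a run of letters and not a measured site, and the genes were picked in part as known TEAD targets.

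**Figure D3:**
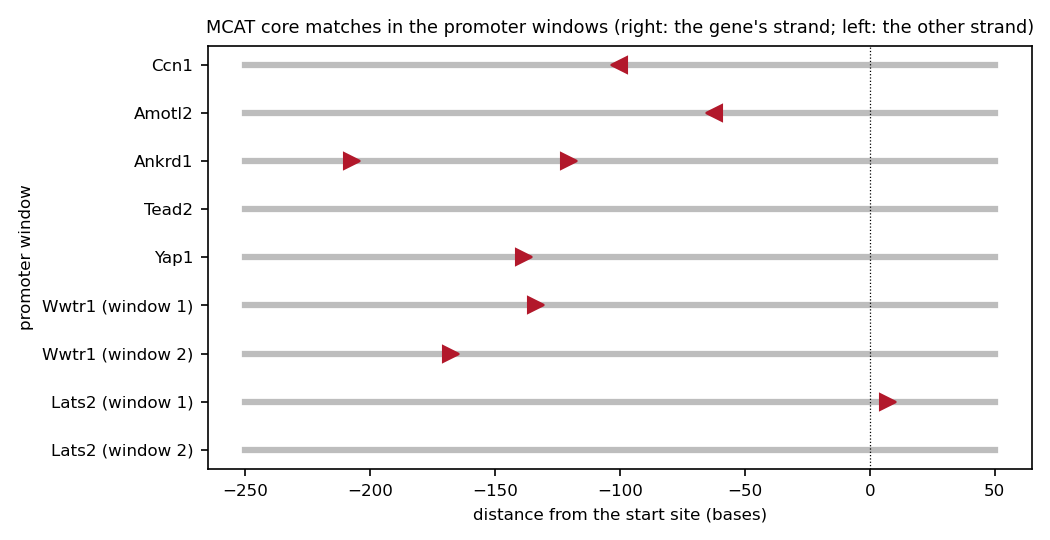
Matches of the MCAT core in the 9 promoter windows, by distance from the start site in bases (x axis), 1 line per window. Arrowheads to the right are matches on the strand of the gene and to the left on the other strand. Ankrd1, near background and with overlapping groups by its brighter probe, has 2 matches, and Ccn1 and Amotl2 have 1 each.

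The other genes of the pathway were described from a list of 30 upstream regulators, TEAD partners and the remaining TEAD factor, of which 28 had a probe and 20 were measured. This list and the lists below were chosen with earlier results of these data known. Their counts and adjusted p-values are therefore a description and not a test. Of the 20 measured genes, 11 rose and 1 fell, against 22.5% and 24.3% of all features, and 8 were not past the threshold. Their median log2 change was 0.36, against -0.03 over all features. The largest rise was that of Vgll3, a cofactor that binds TEAD factors, at 1.89 ± 0.06 (SE; limma adjusted p = 1.17e-06). Its kept probe had 8.45, 8.44 and 8.42 on Ncoa3 shRNA arrays against 6.59, 6.48 and 6.58 on scrambled shRNA arrays. The other Vgll3 probes were at background on all 6 arrays, with differences of -0.06 and 0.03. Amotl1, an angiomotin like Amotl2, had 9.25, 9.30 and 9.27 on Ncoa3 shRNA arrays against 7.53, 7.40 and 7.41 on scrambled shRNA arrays, and rose by 1.83 ± 0.06 (SE; limma adjusted p = 1.56e-06). Amot, the remaining angiomotin, was not measured. Amotl2 and Amotl1, the angiomotins that were measured, were thus both higher in Ncoa3 shRNA cells.

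Ptpn14, a phosphatase that binds YAP, rose by 0.91 (limma adjusted p = 8.39e-05), and its 4 kept probes had changes from 0.91 to 2.11. The tumour suppressor Rassf1, a partner of the Stk3 and Stk4 kinases, rose by 0.85 (limma adjusted p = 1.08e-04). Ajuba, a LIM protein that restrains LATS kinases, rose by 0.82 (limma adjusted p = 0.00367). Of the kinase core, the adaptors Sav1 and Mob1a had changes of 0.09 and -0.003, and the kinases Lats1 and Stk4 of 0.07 and -0.15. None of these was past the threshold, while the adaptor Mob1b rose by 0.46. The kept Lats1 probe had 5.61, 5.68 and 5.59 on Ncoa3 shRNA arrays, against 5.56, 5.46 and 5.66 on scrambled shRNA arrays, and the groups overlapped. The other Lats1 probe, the only one annotated to a RefSeq transcript, was at background on all 6 arrays, with a difference of -0.26. The kinase Map4k4 fell by 0.24 (limma adjusted p = 0.0249), but a second kept probe had a change of 0.39, and the mean of both probes a change of 0.07. Its adjusted p was above 0.05 without scrambled replicate 1 (log2 change -0.19), without Ncoa3 shRNA replicate 1 (-0.23) and without Ncoa3 shRNA replicate 2 (-0.22).

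A second list held 16 further genes in wide use as YAP and TEAD targets, of which 15 had a probe and only 6 were measured. Of these, 3 rose and 2 fell, against 22.5% and 24.3% of all features, and 1 was not past the threshold. Their median log2 change was 0.07, against -0.03 over all features. Axl, a receptor tyrosine kinase, had 7.91, 7.86 and 7.87 on Ncoa3 shRNA arrays against 6.80, 6.91 and 6.84 on scrambled shRNA arrays, and rose by 1.03 ± 0.06 (SE; limma adjusted p = 1.56e-05). Igfbp3, which binds insulin-like growth factors, rose by 0.73 (limma adjusted p = 1.92e-04), and Gadd45a, a stress gene, by 0.32 (limma adjusted p = 0.00719). Nt5e, the ecto-nucleotidase CD73, had 5.68, 5.56 and 5.54 on Ncoa3 shRNA arrays against 7.03, 7.12 and 7.31 on scrambled shRNA arrays, and fell by 1.56 ± 0.09 (SE; limma adjusted p = 1.24e-05). The kinase Nuak2 fell by 0.34 (limma adjusted p = 0.00555). The 9 others with a probe, among them F3, Crim1 and Tgfb2, were too dim to be measured. Within the Ccn family, Ccn4 rose by 0.69 ± 0.11 (SE; limma adjusted p = 0.00147) on 1 of its 2 probes, and Ccn3 and Ccn5 were at background on all 6 arrays.

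**Figure D4:**
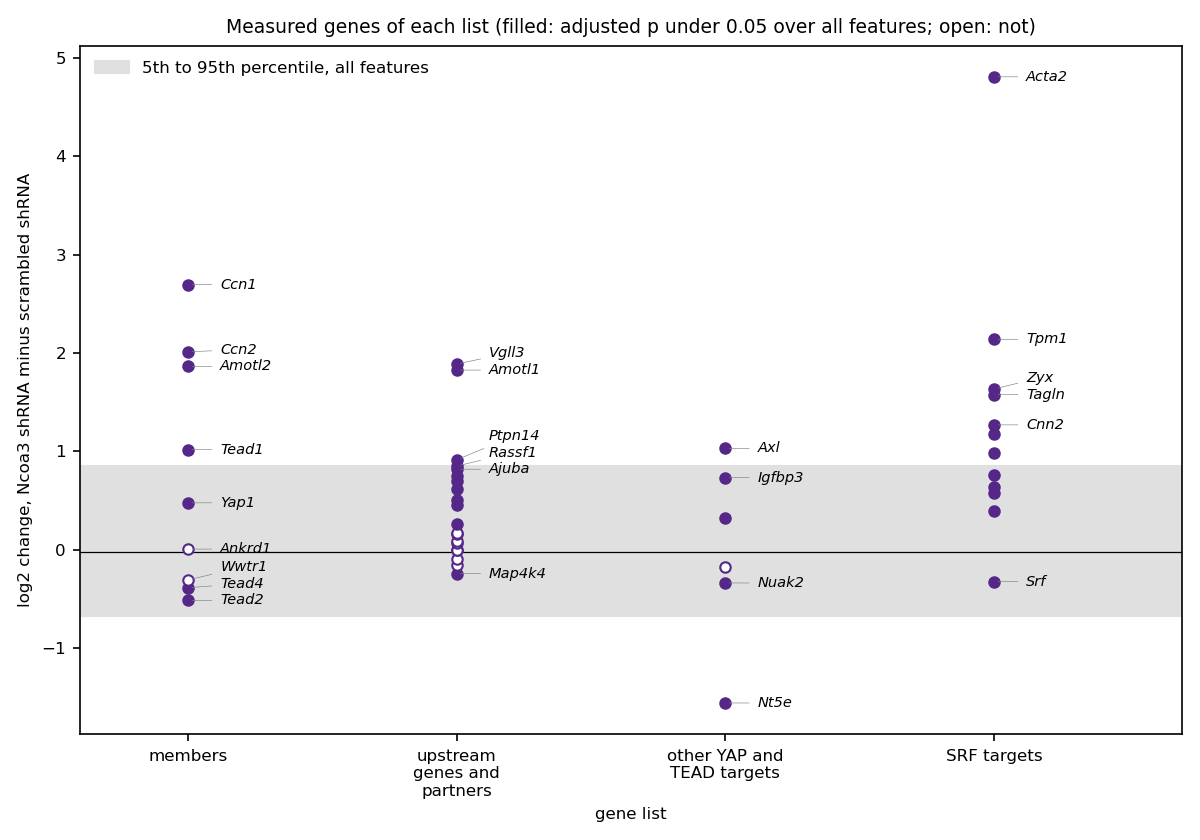
Log2 change (y axis, Ncoa3 shRNA minus scrambled shRNA) of each measured gene of 4 lists (x axis), filled where the adjusted p over all features was under 0.05. The grey band spans the 5th to 95th percentile of all features, from -0.67 to 0.85. Ccn1, Ccn2, Amotl2 and Tead1 lie above the band among the members, and Vgll3 and Amotl1 lie well above it among the upstream genes.

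SRF, a factor that answers to actin and serum, also acts on Ccn1, Ccn2 and Ankrd1, and its targets were therefore listed as well. Of 14 SRF targets, the Srf gene included, 12 were measured, and 11 rose and 1 fell, against 22.5% and 24.3% of all features. Of the 11, Acta2, Tagln, Myl9 and Fhl2 were above background on Ncoa3 shRNA arrays only and were kept through them, so that a difference was built into their selection. The median log2 change was 1.08, or 0.70 with these 4 genes set to their bound, against -0.03 over all features. By the brightest of its 4 kept probes, smooth muscle actin Acta2 was at least 17.8-fold higher in Ncoa3 shRNA cells, and by the others at least 3.40-fold, 2.22-fold and 1.70-fold. Tagln, another smooth muscle protein, was at least 1.82-fold higher. These bounds hold for the background-corrected values: without background correction the log2 changes were 3.05 for Acta2 and 0.69 for Tagln, and in the authors' normalized values 3.03 and 0.65. Tropomyosin Tpm1 rose by 2.14, the focal adhesion protein Zyx by 1.63 and the calponin Cnn2 by 1.27 (limma adjusted p of 2.50e-05 or less). The 1 gene that fell was Srf itself, by 0.32 by its brighter probe (limma adjusted p = 0.0318). A second kept Srf probe had a change of -0.05 ± 0.16 (SE), with groups that overlapped. The Srf adjusted p was above 0.05 both in the authors' normalized values and with arrays scaled to the median of all probes (a log2 change of -0.17 each), and when any array but scrambled replicate 2 was left out. How far the changes of Ccn1 and Ccn2 go with those of the SRF targets was not tested.

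Cdx2 and Gata3, trophectoderm factors known to lie downstream of Tead4, were not above background in scrambled shRNA cells and were at least 5.41-fold and at least 3.02-fold higher in Ncoa3 shRNA cells in background-corrected values. Without background correction their log2 changes were 1.44 and 1.02, and in the authors' normalized values 1.43 and 1.00. Tead4 was lower in the same arrays. Of 10 markers of trophectoderm 7 were measured and all 7 rose, against 22.5% of all features. Cdx2, Gata3 and the keratin Krt19 were kept only through the Ncoa3 shRNA arrays, so that a difference was built into their selection. The summed linear intensity of the 7 ran from 1712 to 1863 on Ncoa3 shRNA arrays and from 474 to 498 on scrambled shRNA arrays. Eomes and Hand1 were at background on all 6 arrays. Elf5, also not measured, was above background by 1 probe on 1 scrambled shRNA array and on no Ncoa3 shRNA array. The groups of that Elf5 probe overlapped, with a difference of -0.18. Of 8 markers of embryonic stem cells all were measured, and 7 fell and Utf1 rose, against 24.3% and 22.5% of all features. Their summed intensity ran from 58113 to 60257 on Ncoa3 shRNA arrays and from 73833 to 76188 on scrambled shRNA arrays. Dppa5a, the brightest of the 8, weighed most in this sum. Its log2 change was -0.20, against a median of -0.46 for the list. Of 7 fibroblast markers only Thy1 was measured, and it fell. Its level summed to 72.4 to 82.6 on Ncoa3 shRNA arrays and 171 to 208 on scrambled shRNA arrays, and Col1a1, Col1a2, Col3a1 and Postn were at background on all 6 arrays. Of 7 markers of primitive endoderm 3 were measured and 2 rose, against 22.5% of all features, with a summed intensity of 259 to 275 on Ncoa3 shRNA arrays and of 196 to 206 on scrambled shRNA arrays, and with Gata4 and Sox17 at background on all 6 arrays. Of 4 heart muscle markers only Myh6 was measured, kept only through the Ncoa3 shRNA arrays. In background-corrected values Myh6 was at least 1.07-fold higher in Ncoa3 shRNA cells, while Nppa and Actc1 were at background on all 6 arrays. The part of these other markers in the differences of the pathway genes was not tested. In such bulk RNA, more cells of one kind and more RNA per cell cannot be told apart.

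Genes whose pattern was most like that of a member were found by the root mean square difference of log2 values over the 6 arrays, after each gene was centred on its mean. This was done for Ccn2 and Tead2, the members with the highest and the lowest change among those detected on all 6 arrays. Nearest to Ccn2 were Bmerb1, Alox5 and Ltb4r1, at differences of 0.07, 0.08 and 0.09 and with changes of 1.94, 2.11 and 1.93. Nearest to Tead2 were Ttc4, Zfp41 and Cyc1, at differences of 0.03 each and with changes of -0.50, -0.48 and -0.54. The likeness rests mainly on the step between the groups, since the arrays fall into 2 groups.

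**Figure D5:**
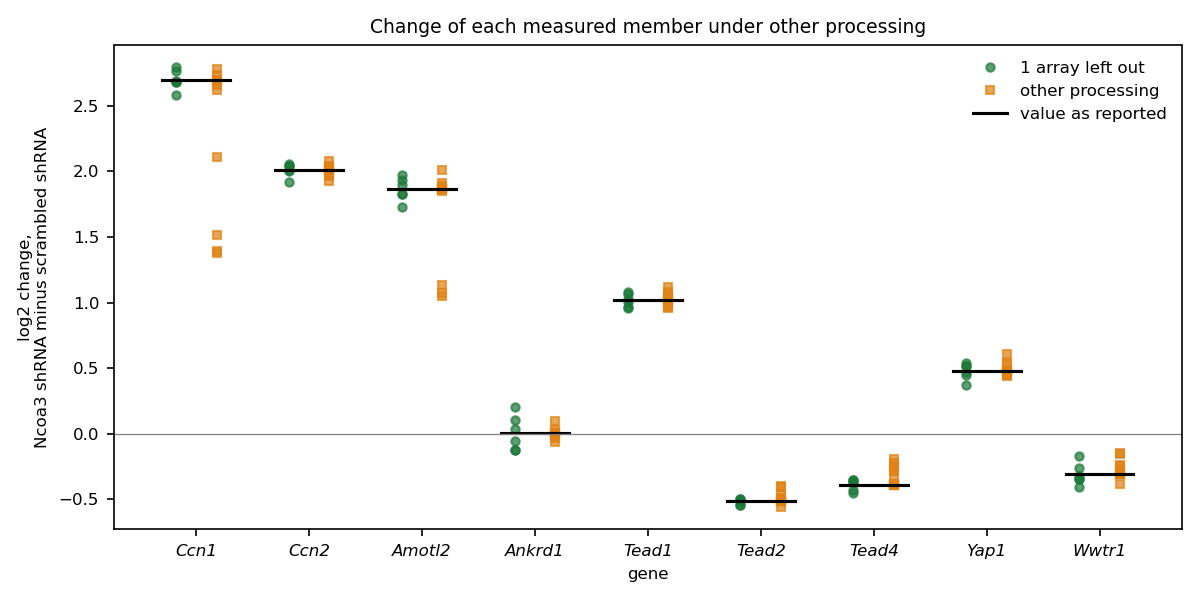
Log2 change (y axis, Ncoa3 shRNA minus scrambled shRNA) of each measured member (x axis) as reported (black line), with 1 array left out (green) and under other processing (orange). Ccn1, kept only through the Ncoa3 shRNA arrays, and Amotl2 keep their direction and are at 1.39 and 1.05 without background correction. Ankrd1 lies on both sides of 0.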

How the data were processed

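Probe intensity was deposited on a linear scale, non-normalized per the file headers, with a detection p-value beside each intensity in the deposited table. A second deposited table held the authors' normalized intensity, whose method is not given in the sources used here; its columns rank the probes as the raw signal does (rank correlation 1). Per the labels' protocols, biotin-labelled cRNA was made from total RNA.

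The neqc function (limma 3.58.1, R 4.3.3) took background from the detection p-values, added an offset of 16, normalized by quantiles and gave log2 values. Probes with detection p under 0.01 on at least 3 of 6 arrays were kept, 16674 in all. Probes were named from the platform annotation held by GEO, with 34885 probes given 1 gene, 18 several and 10378 none. Each gene was represented by its brightest kept probe, which gave 11782 features. All were fitted with limma (lmFit, eBayes, 2-sided, no covariates) and adjusted by Benjamini-Hochberg. Values of a probe that does not represent its gene come from the same fit over all kept probes. "Measured" means kept, and "above background" means detection p under 0.01. Precision is limited by the number of arrays: with 3 against 3, an exact permutation test has a smallest p of 0.1.

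The members and lists were chosen with earlier results of these data known. Named genes were all members, Ncoa3, Esrrb, further genes of the small families, up to 5 called genes in each direction of each list, Cdx2 and Gata3, and the 3 genes most like a member; others were named after their values were seen. The comparison of TEAD proteins was not done. The fit was tested on simulated arrays. Alternatives were other background corrections, normalizations, filters, probe choices and priors, a block for replicate number, weights for arrays, and the omission of each array in turn; scaling to the median of kept probes was added after seeing the data. Slide as a block was not run, as no slide was given in the sources used here.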

Additional observations from a re-analysis of the deposited data

How the results depend on the processing

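Of the 9 measured members, Ccn2, Amotl2, Tead1, Tead2 and Yap1 kept their direction and their side of the threshold under all 19 alternatives. Ccn1 did so under the 18 that measured it. As reported, Ccn1 was kept only through the Ncoa3 shRNA arrays, so that a difference was built into its selection. The filter for detection on all 6 arrays left it out. Tead4 was not past the threshold in 1, median scaling over all probes, and Wwtr1, not past it as reported, was past it in 6. Ankrd1 changed sign in 6, none past the threshold: -0.063 after median scaling over kept probes, -0.035 in the authors' normalized values, -0.013 with array weights, and without scrambled replicate 1 or 3 or Ncoa3 shRNA replicate 2; leaving out each array in turn gave -0.124 to 0.201. Map4k4 changed sign with the mean of its kept probes (0.072). The number of members past the threshold was 7 of 9, beside 5524 of all 11782 features, and 6 to 8 under the alternatives. It was 6 of 9 after median scaling over all probes, beside 5142 of 11782 features. Without background correction it was 8 of 9, beside 6020 of 11782. With only features detected on all 6 arrays, 6 of 7 measured members were past the threshold, beside 5116 of 10248 features. Under that filter 7 SRF targets were measured and all 7 passed, against 12 of 12 as reported, because 5 were left out by it. With the replicate block, 5133 features were past the threshold, against 5524 without it, and 8 members, Wwtr1 added (log2 change -0.31). Same-numbered arrays did not deviate together (correlations of their deviations from the group means of -0.0035, -0.0125 and 0.0162), so the samples were not paired by replicate number. Such correlations cannot show whether same-numbered cultures were handled together. Of the features past the threshold 48.1% were higher in Ncoa3 shRNA cells, against 69.1% after median scaling over all probes, which shifted the median of all changes by 0.12, and 59.8% in the authors' normalized values. Nuak2 was not past the threshold after median scaling over all probes (-0.19). Dim genes changed by less in values without background subtraction: Igfbp3 by 0.40 and Ajuba by 0.36, and in the authors' normalized values Nt5e by -0.81, Ccn4 by 0.30 and Cdx2 by 1.43. Dim probes, among them those of Ccn1, Amotl2, Ankrd1 and Lats2, limit what can be said of size.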
